A study of Mus musculus with 2 samples.

Results

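The hepatocytes described here are 951 cell barcodes in which the sulfotransferase genes Sult2a1 and Sult2a2 and the steroid dehydrogenase gene Akr1c6 were read, with little Car3 or Glul. They were chosen from 13151 barcodes of the gene expression library by a rule on measured values. A barcode needed at least 500 genes, 1000 to under 10000 gene UMIs (unique molecules) and under 20% of UMIs from mitochondrial genes. At least 1% of its UMIs had to come from the hepatocyte genes Alb, Apoa1, Apoa2, Ttr and Fgb, and under 0.5% from the MHC class II genes H2-Aa, H2-Ab1, H2-Eb1 and Cd74. At least 2 of the 3 genes Sult2a1, Sult2a2 and Akr1c6 had to be detected, with Car3 at no more than 1 UMI and Glul under 0.1% of UMIs. The quality and depth gates kept 7432 barcodes and the hepatocyte gates 6119, so the Sult2a and Akr1c6 hepatocytes were 15.5% of these (95% Clopper-Pearson interval 14.6 to 16.5, counting error only). The other hepatocytes of the same gates formed 3 comparison classes. The 1396 marker-low hepatocytes met the Car3 and Glul gates with fewer than 2 of the 3 genes, the 3354 Car3-high hepatocytes had 2 or more Car3 UMIs, and the 418 Glul-high hepatocytes had 0.1% or more Glul.

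The cells came from the livers of 3 female C57BL/6 mice, injected at 6 to 8 weeks of age and taken on day 6. Hydrodynamic tail vein injection, a fast injection of a large volume, brought in a transposon with NRAS and the yellow fluorescent protein mVenus, together with a transposase plasmid. In 2 mice the transposon carried oncogenic NRAS(G12V), and in the control mouse NRAS(G12V/D38A), whose further change lies in the effector domain, so all 3 mice carried a transgene and none was uninjected. The construct was driven by the ubiquitous CAGGS promoter and reaches a part of the hepatocytes, the cells were sorted for mVenus, and the mice were marked by hashtag antibodies before pooling. The deposited pairing gives hashtag 1 to the D38A mouse and hashtags 2 and 3 to the G12V mice, whereas the methods of the study give hashtag 3 to the D38A mouse. The mice are therefore named by hashtag, and with 1 control mouse no test between the transgenes was made.

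Hepatocytes differ along the lobule. Those near the portal vein carry out urea synthesis and gluconeogenesis, and those near the central vein make glutamine through Glul, glutamine synthetase, and carry many cytochrome P450 enzymes. SULT2A enzymes add sulfate to bile acids and hydroxysteroids, Akr1c6 is a 17-beta-hydroxysteroid dehydrogenase of the aldo-keto reductase family, and Agxt turns glyoxylate into glycine. Car3 encodes carbonic anhydrase 3, an abundant cytosolic protein of hepatocytes.

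In the GENCODE annotation of GRCm38, Sult2a1 (ENSMUSG00000078798) lies at chr7:13796246-13837409 on the minus strand and Sult2a2 (ENSMUSG00000070811) next to it at chr7:13733505-13779636 on the plus strand. Akr1c6 (ENSMUSG00000021210) lies at chr13:4434306-4457877 and Agxt (ENSMUSG00000026272) at chr1:93135240-93145421, both on the plus strand. The reads were 91 bases long, and 13.4% of the 91-base words of the Sult2a1 transcripts also occur in other Sult2a genes. For Sult2a2 this share was 38.6%, so reads could be lost or split within that family and the split of its counts is uncertain. No 91-base word of Akr1c6 occurs in another Akr1c gene.
The 250 bases before the RefSeq starts of Akr1c6 and Agxt are printed because these are the defining gene with the highest level and the marker that the rule did not use. They lie at chr13:4434093-4434342 and chr1:93134990-93135239 (GRCm38.p6, plus strand, 5′ to 3′), with capitals marking TATAAA.
Akr1c6: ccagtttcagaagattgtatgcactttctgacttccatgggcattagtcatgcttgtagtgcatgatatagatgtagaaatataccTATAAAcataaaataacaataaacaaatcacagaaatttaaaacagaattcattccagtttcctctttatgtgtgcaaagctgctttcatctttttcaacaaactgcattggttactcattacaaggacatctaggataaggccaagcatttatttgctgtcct
Agxt: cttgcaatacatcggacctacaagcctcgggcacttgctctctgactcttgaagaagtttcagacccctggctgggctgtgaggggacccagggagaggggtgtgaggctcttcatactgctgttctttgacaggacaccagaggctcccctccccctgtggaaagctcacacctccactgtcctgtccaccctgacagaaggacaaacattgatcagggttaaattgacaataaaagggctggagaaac
Both strands were searched for TATAAA, which 12.4% of 32851 promoter windows of this length hold. CAAAGTCCA (HNF4) and TTGCGCAA (C/EBP) were in neither window. They occur in 0.384% and 0.164% of all windows.

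The genes of the rule are described without a test, since they chose the barcodes. Akr1c6 was the highest of the 3, at 4729 UMIs per 1000000 gene UMIs (CPM) over all 951 barcodes. It was detected in 97.5% of them with a median of 13 UMIs. Sult2a2 stood at 965 CPM and was detected in 93.4%, with a median of 2 UMIs. Sult2a1 stood at 457 CPM and was detected in 48.5%, and 1 barcode held 68 of its UMIs. By hashtags 1, 2 and 3, Sult2a1 was at 353, 341 and 588 CPM, Sult2a2 at 959, 666 and 641, and Akr1c6 at 3913, 4033 and 2831. The order of the 3 genes was the same in each mouse, on a scale of 3′ molecule counts, which does not grow with gene length.

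Over all barcodes the Sult2a genes were highest in the Sult2a and Akr1c6 hepatocytes, and Akr1c6 was not. Sult2a1 was at 223 CPM in Car3-high, 42.9 in Glul-high and 3.67 in marker-low hepatocytes, and Sult2a2 at 497, 113 and 29.4 CPM. Within the called Car3-high hepatocytes, hashtags 1, 2 and 3 held 240, 536 and 130 CPM of Sult2a1 and 864, 889 and 198 of Sult2a2, so for hashtag 2 both genes were higher there than in the Sult2a and Akr1c6 hepatocytes. Akr1c6 was higher in Car3-high and Glul-high hepatocytes, at 6321 and 9292 CPM, than in the Sult2a and Akr1c6 hepatocytes, and the marker-low class still held 2490 CPM. Other cell types were taken as the 1169 barcodes of the same quality and depth with 2% or more UMIs from non-hepatocyte markers and MHC class II genes (125 of them also met the hepatocyte gates, and 4 were Sult2a and Akr1c6 hepatocytes). There Sult2a1 stood at 6.82, Sult2a2 at 16.8 and Akr1c6 at 281 CPM, taken here as a guide to the level of free RNA. Marker-low hepatocytes were at or near that level for the Sult2a genes, which their limit of fewer than 2 of the 3 genes largely set. When every barcode was thinned to 1000 UMIs, Sult2a2 was detected in 59.6% of the Sult2a and Akr1c6 hepatocytes, in 19.9% of Car3-high and in 8.37% of Glul-high hepatocytes (93.4%, 30.6% and 13.2% without thinning). In the other cell types it was detected in 1.63% (4.70% without thinning).

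**Figure D1:**
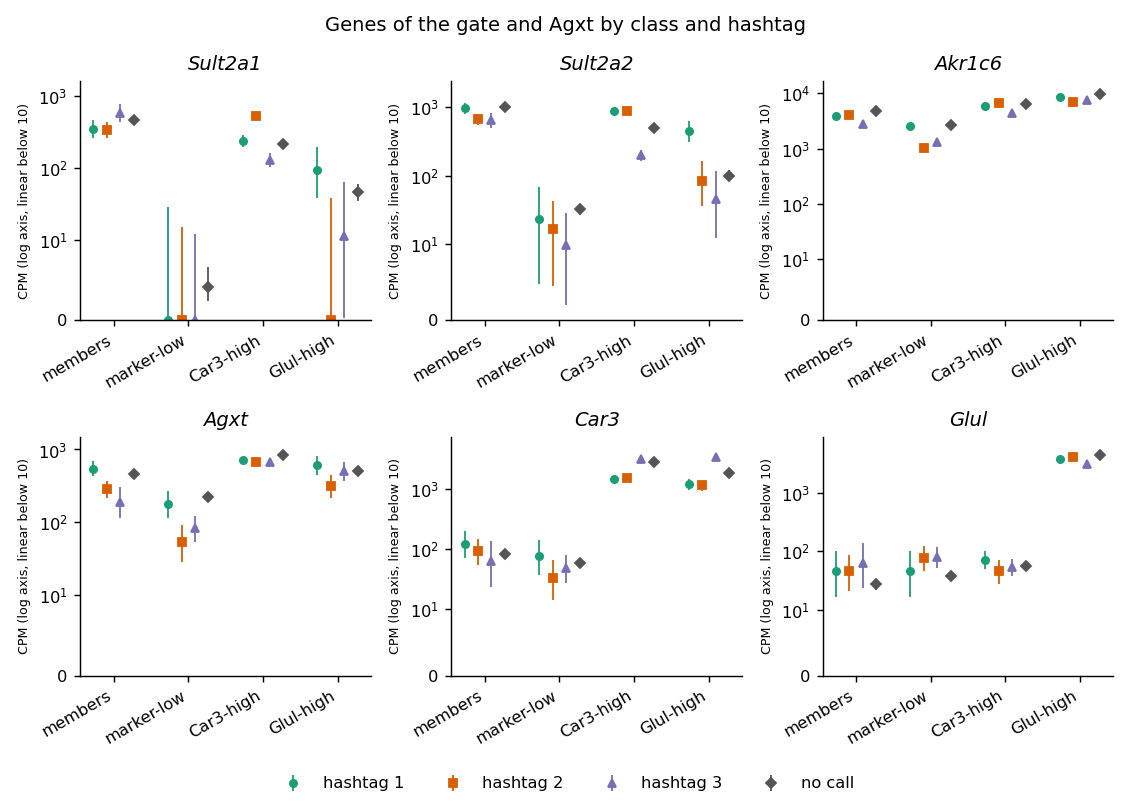
Levels of the 5 genes of the rule and of Agxt in CPM (vertical axis, logarithmic above 10) in the 4 hepatocyte classes, with 1 point for each hashtag and for barcodes without a call and bars for exact 95% Poisson intervals (counting error only). The Sult2a and Akr1c6 hepatocytes are the class called members, the Sult2a genes are lowest in the marker-low class, and Akr1c6 is highest in Glul-high hepatocytes.

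All 3 genes were detected together in 374 barcodes (39.3%), Sult2a2 with Akr1c6 in 490, Sult2a1 with Akr1c6 in 63 and Sult2a1 with Sult2a2 in 24. Agxt was similar in the first 3 combinations, at 475, 465 and 385 CPM, and stood at 66.0 CPM in the 24 barcodes without Akr1c6. Just inside the rule, the 577 barcodes with 2 of the 3 genes held 679 CPM of Sult2a2. Just outside it, the 965 barcodes with 1 gene held 43.8 CPM, and 884 of them had Akr1c6 as that gene. For Car3, 297 barcodes with 1 UMI lay inside and 177 with 2 UMIs outside. The values on the 2 sides of this limit were close: Sult2a2 was at 1085 and 1054 CPM, Akr1c6 at 5400 and 5621 and Agxt at 596 and 634. Another 909 barcodes met every other gate with 3 or more Car3 UMIs, and 14 with Glul at 0.1% or more.

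The label as hepatocytes was set beside the highest genes and the markers of other cells. Alb led at 18507 CPM, followed by Fabp1 at 18475, Ftl1, Ttr, Fth1 and Gstm1. Alb and Ttr belong to the hepatocyte gate, so their levels are no check of the label. Neutrophil genes were all at 0 but S100a8, with 27 UMIs. Epithelial genes of bile ducts were low but for Spp1 and were summed at 1330 CPM. The median barcode held 3191 UMIs, 1234 genes, 0.254% mitochondrial UMIs and 0.0214% UMIs from the markers of endothelial, Kupffer, lymphoid, dendritic, neutrophil and stellate cells.

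A hashtag was called for few of these barcodes, and the called ones differed from the rest. Hashtag 1 was called for 32, hashtag 2 for 38 and hashtag 3 for 23, while 851 (89.5%) had no call, 2 were doublets and 5 had no hashtag data. The calls depend on the method: a fixed rule (at least 10 hashtag UMIs, 80% of them from 1 tag) gave 153, 12 and 11 of these barcodes to hashtags 1, 2 and 3, and 998, 62 and 166 hepatocytes of the same gates, against 191, 214 and 370. Their median hashtag count was 22 UMIs, near the 21 to 23 of the other 3 classes and below the 50 of barcodes with at least 10000 gene UMIs. Malat1, a nuclear RNA, was at 466 CPM in the uncalled barcodes and at 4304, 1244 and 7159 CPM for hashtags 1, 2 and 3. It was at 11994 CPM in hepatocytes of the pool with at least 10000 UMIs and at 27331 CPM in the other cell types. With all barcodes thinned to the same depth, Malat1 was detected in 17.1% of the Sult2a and Akr1c6 hepatocytes. This share was 85.9% in the hepatocytes with at least 10000 UMIs and 97.7% in the other cell types. It was 29.9% in marker-low, 18.7% in Car3-high and 17.2% in Glul-high hepatocytes. Median mitochondrial shares of the Sult2a and Akr1c6 hepatocytes were 0.240% without a call and 0.826%, 0.560% and 3.08% with one. Hepatocytes of the pool with at least 10000 UMIs had 8.48%. None of 851 uncalled barcodes, but 5 of 32, 3 of 38 and 8 of 23 called ones, held 0.5% or more non-hepatocyte marker UMIs. In the called marker-low class these were 15 of 47, 27 of 66 and 96 of 122. The whole endothelial list of 18 genes summed to 58.8 CPM in uncalled Sult2a and Akr1c6 hepatocytes and to 598, 604 and 6678 CPM by hashtag.

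Within the 951 barcodes, the mitochondrial share moved with other genes. In the 703 barcodes under 0.5% mitochondrial UMIs, Malat1 was at 206 CPM, Akr1c6 at 5417, Alb at 13319 and Spp1 at 586. In the other 248, Malat1 was at 2538 CPM, Akr1c6 at 2811, Alb at 32971 and Spp1 at 3348. Median depth was similar, at 3268 and 2915 UMIs. The part of cell integrity in the results below was not tested.

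**Figure D2:**
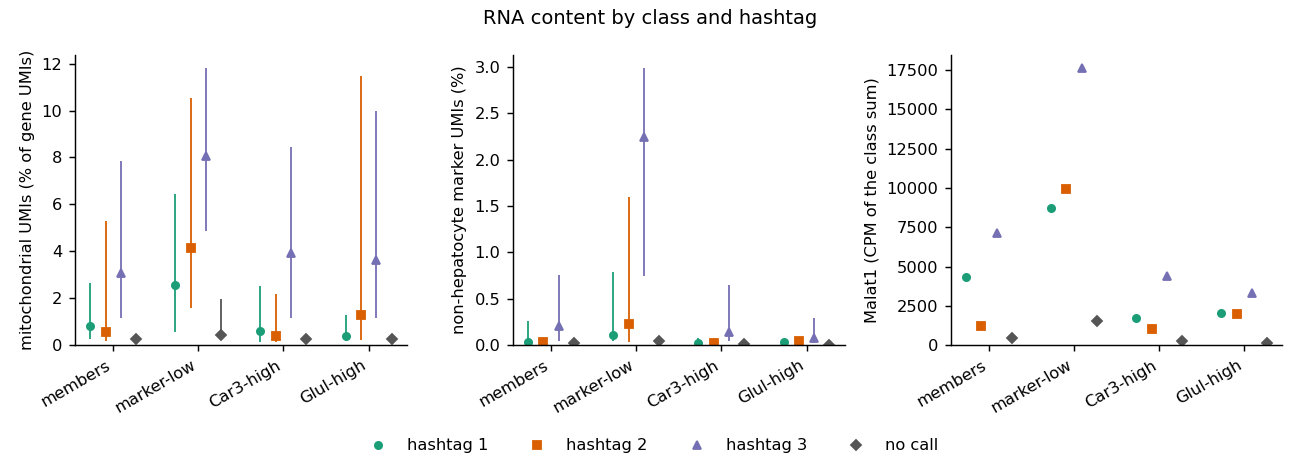
Mitochondrial UMIs (left, %), UMIs from markers of other cell types (middle, %) and Malat1 (right, CPM) by class and hashtag. Points on the left and in the middle are medians over barcodes with bars for the quartiles, and Malat1 is the level in the sum. Within each hashtag, called marker-low barcodes are highest in all 3 measures.

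Among called hepatocytes of the same gates, the Sult2a and Akr1c6 hepatocytes were 16.8% (32 of 191, interval 11.8 to 22.8) for hashtag 1, 17.8% (38 of 214, 12.9 to 23.5) for hashtag 2 and 6.22% (23 of 370, 3.98 to 9.18) for hashtag 3. Barcodes without a call gave 16.1%. These intervals count barcodes of 1 mouse each, so a difference between mice was not tested. The hepatocyte gate of hashtag 3 also held the most marker-low barcodes rich in non-hepatocyte RNA, and with a hepatocyte gate of 5% the shares were 19.2%, 27.1% and 21.1% (5 of 26, 13 of 48 and 4 of 19). Thinned to 1000 UMIs, they were 24.1%, 24.3% and 5.14%.

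The sort was for mVenus, which over all barcodes was lowest in these hepatocytes among the 4 classes. It stood at 5.88 CPM (exact Poisson interval 3.64 to 8.99), against 34.8 in marker-low, 35.6 in Car3-high and 50.1 in Glul-high hepatocytes. In other cell types it was at 4.72 CPM and in called hepatocytes with at least 10000 UMIs at 68.1. The level in the Sult2a and Akr1c6 hepatocytes could not be told from that background at this depth. Nras, whose row also takes up reads of the construct, was at 142 CPM, against 612 in marker-low, 102 in Car3-high, 174 in Glul-high hepatocytes and 94.3 in other cell types. In the called barcodes of the 3 mice, mVenus was at 7.18 CPM in the Sult2a and Akr1c6 hepatocytes (3 UMIs, interval 1.48 to 21.0), against 28.0 in marker-low (16.9 to 43.7), 25.3 in Car3-high and 15.6 in Glul-high hepatocytes (4.24 to 39.8). By hashtags 1, 2 and 3 it was at 15.3, 5.16 and 0 CPM, against 7.71, 45.2 and 22.9 in marker-low, 9.39, 6.93 and 46.8 in Car3-high and 0, 0 and 45.4 in Glul-high hepatocytes, so the order did not hold in every mouse. Nras in called barcodes was at 86.2 CPM (84.4, 72.3 and 118 by hashtag), against 455 in marker-low, 88.8 in Car3-high and 420 in Glul-high hepatocytes. The called Glul-high level was 108 UMIs, with Nras in 1 of 17, 2 of 19 and 7 of 23 barcodes by hashtag. Near the limit of the rule Nras moved with the number of genes detected: 94.5 CPM with 3, 176 with 2, 383 with 1 and 1081 CPM with none of the 3 genes. Median mitochondrial shares there were 0.231%, 0.266%, 0.397% and 3.85%. The share of all barcodes with Nras differed less, at 25.9% in the Sult2a and Akr1c6, 29.7% in marker-low, 22.1% in Car3-high and 24.2% in Glul-high hepatocytes. These are descriptions of sums and shares, without a test.

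**Figure D3:**
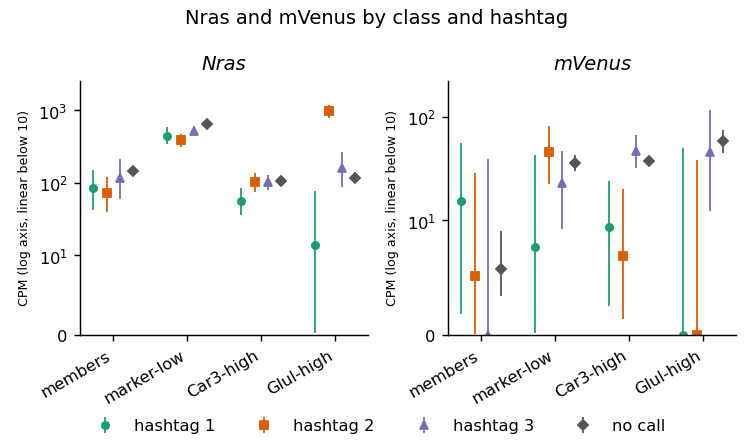
Nras (left) and mVenus (right) in CPM (vertical axis, logarithmic above 10) by hepatocyte class and hashtag, with exact 95% Poisson intervals. The Sult2a and Akr1c6 hepatocytes without a call have the lowest mVenus level of the 4 uncalled classes.

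To ask what else differed from hepatocytes with fewer than 2 of the 3 genes, UMIs were summed per mouse and class and tested with edgeR with the mouse as a block. Of 2161 genes 450 passed (20.8%), of which 165 were higher (7.64%) and 285 lower (13.2%) in the Sult2a and Akr1c6 hepatocytes. Because called marker-low barcodes held much RNA of other cell types, the comparison was also made with barcodes under 0.5% of such UMIs in both classes, and of 1402 genes 107 passed (7.63%), 21 higher (1.5%) and 86 lower (6.13%). The urea cycle genes Arg1, Otc and Ass1 were among the higher genes, and Spp1, Vim and S100a6 among the lower ones. All comparisons share the same called Sult2a and Akr1c6 hepatocytes. The values in the next 3 paragraphs come from the second of these comparisons unless said otherwise.

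Arg1, arginase of the urea cycle, stood at 1135, 847 and 1048 CPM for hashtags 1, 2 and 3, against 488, 112 and 415 in marker-low hepatocytes. The groups did not overlap, and Arg1 was higher by 1.56 ± 0.32 on the log2 scale (SE of the fit, 3 mice, adjusted p = 0.0325). How many of all genes tested lacked overlap was not counted, so a lack of overlap, here and below, only describes the printed values. Otc, which makes citrulline, stood at 830, 674 and 981 CPM against 315, 149 and 524 (1.27 ± 0.25, adjusted p = 0.0285). Ass1, the next step of the cycle, stood at 1603, 1021 and 1657 CPM against 824, 314 and 633 (1.12 ± 0.19, adjusted p = 0.0261). Each mouse showed the higher value in the Sult2a and Akr1c6 hepatocytes for all 3 genes. Further rises were Amdhd1 of histidine breakdown (1.34), Kyat3 of kynurenine metabolism (1.32), urate oxidase Uox (1.30), the phenol sulfotransferase Sult1a1 (1.24), Psen2 (1.11) and Cth of cysteine synthesis (1.03). Hamp2, a hepcidin gene with a close copy in Hamp so that its counts are uncertain, rose by 2.11 ± 0.47. In the comparison without the limit on non-hepatocyte RNA, Gls2, Fbp1, Pbld2, Ftcd and Mmadhc also passed, at 1.81, 1.57, 1.76, 1.57 and 1.63.

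The falls against marker-low hepatocytes were larger than the rises. Spp1, osteopontin, stood at 744, 1184 and 406 CPM against 6069, 5161 and 4946, and fell by 3.06 on the log2 scale (SE 0.25, adjusted p = 0.00147). Vim, vimentin of intermediate filaments, stood at 38.2, 27.2 and 118 CPM against 569, 979 and 710 (-4.18 ± 0.44, adjusted p = 0.00426). Neither gene overlapped between the classes. Sprr1a, a squamous envelope protein, gave -4.37 and S100a6, a calcium-binding protein, -3.17. Igfbp3, Ecm1, Anxa3, Tmsb10, Clu and Ctsl were also lower, at -3.22, -2.99, -2.77, -2.39, -2.12 and -2.11. In uncalled barcodes, without a test, all of these genes were instead higher than in Car3-high and in Glul-high hepatocytes. There Spp1 was at 1343 CPM against 854 in Car3-high and 1039 in Glul-high hepatocytes. S100a6 was at 668 against 342 and 382, and Vim at 87.0 against 61.4 and 49.1. In the comparison without the limit, Lyz2 and Tyrobp of macrophages were lower, at -3.14 and -2.62, as were Fam167b, Pkm and Fxyd5 at -2.47, -2.29 and -2.23. Lyz2 was at 146, 5.16 and 0 CPM in the Sult2a and Akr1c6 hepatocytes against 485, 255 and 141, beside the unequal load of other cell types given above.

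Of 24 periportal genes, 6 were tested and 3 passed, all higher (Ass1, Otc and Arg1), beside 1.5% of all 1402 genes higher. The median of the 6 was 1.19, beside 0.04 over all 1402 genes. None of 7 pericentral genes tested passed (median 0.51). None of 8 glyoxylate and glycine genes passed, with all 8 above 0, a median of 0.81 and Agxt at 1.05. In the comparison without the limit 5 of 8 periportal and 5 of 8 glyoxylate genes passed, all higher, with Agxt at 1.48 ± 0.28 (545, 284 and 192 CPM against 177, 53.4 and 81.8). There 2 of 8 pericentral genes passed as well, both higher (the glutathione transferase Gsta3 and Rgn, median 0.60). Of all 2161 genes in that comparison 20.8% passed and 7.64% were higher, so 2 of 8 is not read as a result about pericentral genes. With the limit, 3 of 24 secreted plasma proteins passed, all lower (Ambp, Apoe and Rbp4), beside 6.13% of all 1402 genes lower. Without the limit, 2 of the 24 passed as higher (Apoc1 and Apoc3) and 3 as lower (Ambp, Apoe and Trf), beside 7.64% and 13.2% of all 2161 genes. The calls depend on few mice and few barcodes. Without hashtag 1, 2 or 3 the second comparison called 0, 15 and 217 genes (the first 372, 185 and 378), with 249 at an unadjusted edgeR p under 0.05 where none passed. Without the block 30 and 1 genes passed, with both classes under 1% mitochondrial UMIs 3 and 15. None of these last was higher, and that fit had no hashtag 3 sums.

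The 851 uncalled barcodes took no part in the tests, and they come from the same pool. Of the 398 genes called in the comparison without the limit that reached 20 CPM there, 388 (97.5%) had the same direction against uncalled marker-low hepatocytes, as had 78.5% of all 2076 genes. Arg1 stood at 1143 against 360 CPM, Otc at 891 against 355, Spp1 at 1343 against 7124 and Vim at 87.0 against 654. Malat1 was 466 against 1548 CPM. These differences lay in the same direction as in the tests, in barcodes of which none of the Sult2a and Akr1c6 and 17 of 1154 marker-low hepatocytes held 0.5% or more non-hepatocyte marker UMIs.

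**Figure D4:**
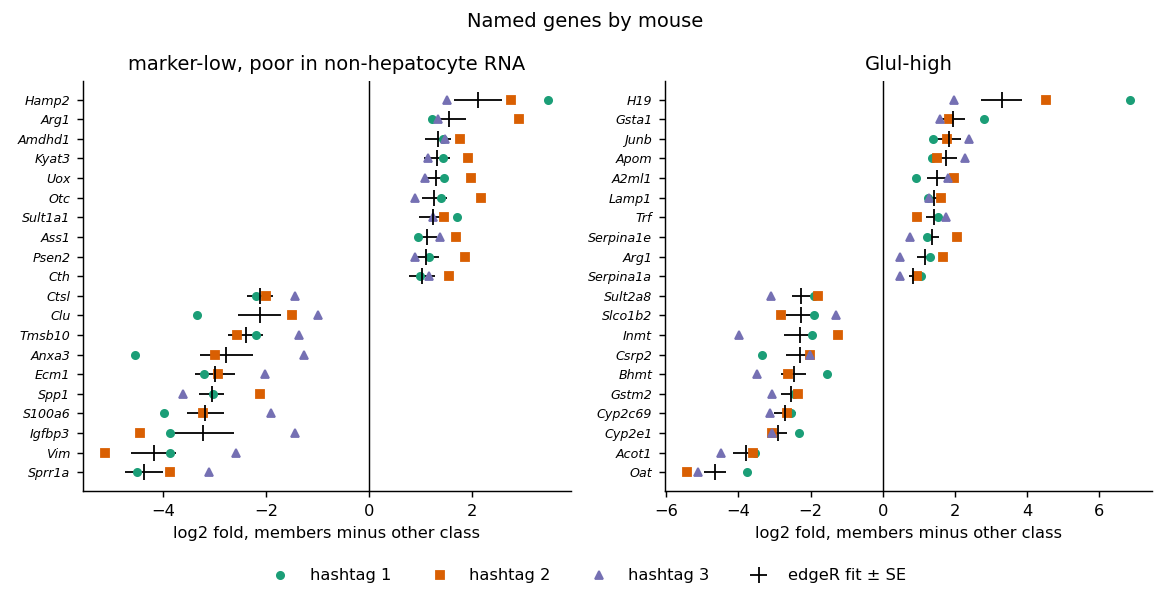
Log2 fold (horizontal axis, Sult2a and Akr1c6 hepatocytes, named members, minus the other class) of the 10 largest rises and 10 largest falls against marker-low hepatocytes poor in non-hepatocyte RNA (left) and against Glul-high hepatocytes (right). Coloured points are the 3 mice, on CPM + 1, and black marks the edgeR fit with its SE; in each row the 3 mice lie on the same side of 0.

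The Car3-high hepatocytes differ from the Sult2a and Akr1c6 hepatocytes in Car3 and, for most barcodes, also in the gate on the 3 genes: of 3354, only the 177 with 2 and the 909 with 3 or more Car3 UMIs given above met the other gates. Differences that go with Car3 and with the Sult2a genes can therefore not be told apart here. Of 3259 genes 160 passed (4.91%), of which 96 were higher (2.95%) and 64 lower (1.96%) in the Sult2a and Akr1c6 hepatocytes. Periportal genes that passed were all lower, and stress, acute phase and plasma protein genes that passed were all higher. Sult2a8, a further liver sulfotransferase, stood at 146, 129 and 171 CPM against 643, 665 and 1058, and fell by 2.26 (SE 0.20, adjusted p = 7.21e-07). It moved opposite to the direction in which the rule selects Sult2a1 and Sult2a2. Bhmt, which makes methionine from betaine, stood at 215, 77.5 and 118 CPM against 557, 552 and 1348 (-2.37 ± 0.27, adjusted p = 2.64e-05). Inmt, a methyltransferase, stood at 161, 129 and 85.5 CPM against 559, 446 and 910 (-2.09 ± 0.25, adjusted p = 5.08e-05). The classes did not overlap for any of these 3 genes. Acot1, Pck1, Mgll and Oat were lower, at -2.48, -2.42, -1.82 and -1.76, as were the female-biased P450 genes Cyp2c69 and Cyp2c40, which have close copies, at -2.02 and -1.84.

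Of 15 periportal genes tested 5 passed, all lower (Ass1, Pck1, Otc, Tat and Fbp1, median over the 15 of -0.45, beside 0.04 over all genes). Of 13 pericentral genes Rgn and Oat were lower and Cyp2a5 higher (median -0.54). Agxt was lower, by 0.94 (545, 284 and 192 CPM against 707, 672 and 667), with Bhmt and Gnmt, as the 3 of 15 glyoxylate and glycine genes that passed. Of 6 sulfotransferase and sulfate genes Sult2a8 alone passed, and of 11 aldo-keto reductases Akr1c18 alone passed. Akr1c18, a 20-alpha-hydroxysteroid dehydrogenase, stood at 1059, 640 and 502 CPM against 646, 543 and 157 (0.90 ± 0.21, adjusted p = 0.0119).

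Cyp2a4 was higher, at 84.4, 382 and 363 CPM against 63.4, 57.7 and 42.4 (2.38 ± 0.36, adjusted p = 0.000664). It was the 1 of 4 female-biased genes tested that passed as higher, beside the 2 lower ones above. Its close copy Cyp2a5 was higher by 2.84 in the fit but lower for hashtag 1, so the 2 are uncertain. Of 24 secreted proteins 6 passed, all higher (Gc, Apoe, Trf, Apob, Ahsg and Kng1, with a median of 0.66 over the 24), and of 10 acute phase genes 4 (Apcs, Mt2, Mt1 and Hp). Of 19 stress and dissociation genes 11 passed, all higher, with a median of 1.46. Junb, a subunit of AP-1, stood at 391, 253 and 363 CPM against 79.8, 53.1 and 117 (2.14 ± 0.24, adjusted p = 2.06e-05), and Klf6, Hspa1b, Ier5 and Atf3 were higher by 2.26, 2.16, 2.00 and 1.93. Igfbp1, Neat1, Ugt2b34 and Gm4788 were higher by 2.02, 2.07, 1.97 and 1.95. Malat1, looked up after its values were seen, was higher by 0.89, but with both classes under 1% mitochondrial UMIs it was called lower, at -1.78. In uncalled barcodes Junb was at 70.0 against 47.3 CPM, a smaller ratio, and of 16 stress and dissociation genes 2 were at least 2-fold higher (1.54% of all 4095 genes), with a median of 0.49. Against marker-low hepatocytes this list went the other way. Without the limit on non-hepatocyte RNA, 3 of 18 passed, all lower (Btg2, Junb and Dusp1, median -0.75), beside 13.2% of all 2161 genes lower. With the limit 0 of 10 passed (median -0.63). In uncalled barcodes 8 of 20 were at least 2-fold lower than in marker-low hepatocytes (5.84% of all 4209 genes, median -0.80).

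S100a9, a neutrophil protein, had no UMI in the called Sult2a and Akr1c6 hepatocytes and 259, 203 and 80 UMIs in Car3-high ones. Against 3 counts over the group it was at least 48.9-fold lower, and in uncalled barcodes it had 0 and 6 UMIs. Without hashtag 1, 2 or 3, 330, 35 and 102 genes passed, without the block 12, and with all 3 genes of the rule required edgeR called 0 (186 at an unadjusted p under 0.05), from hashtags 1 and 2. Of 155 called genes that reached 20 CPM in uncalled barcodes, 154 (99.4%) had the same direction there, beside 71.5% of all 3150 genes.

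The Glul-high hepatocytes served as the pericentral reference. Of 1333 genes 44 passed (3.3%), of which 11 were higher (0.825%) and 33 lower (2.48%) in the Sult2a and Akr1c6 hepatocytes. Oat, ornithine aminotransferase of the cells at the central vein, stood at 115, 31.0 and 85.5 CPM against 1565, 1373 and 3028, and fell by 4.65 (SE 0.31, adjusted p = 0.00322). Cyp2e1, a P450 enzyme that oxidizes ethanol, stood at 84.4, 191 and 74.8 CPM against 422, 1624 and 635 (-2.90 ± 0.24, adjusted p = 0.00347). Rgn, regucalcin, stood at 1864, 1528 and 1442 CPM against 5552, 4998 and 6068 (-1.77 ± 0.13, adjusted p = 0.00322). None of these overlapped. Of 9 pericentral genes tested 6 passed, all lower (these 3 with Gstm3, Cpox and Aldh1a1, median -1.54, beside -0.01 over all genes).

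Acot1, Cyp2c69, Gstm2, Bhmt, Csrp2, Inmt, Slco1b2 and Sult2a8 were also lower, at -3.79, -2.70, -2.55, -2.47, -2.30, -2.29, -2.27 and -2.26. Arg1 was the 1 of 6 periportal genes that passed, at 1074, 842 and 759 CPM against 435, 262 and 544 (1.16 ± 0.22, adjusted p = 0.047). H19, an imprinted fetal RNA, stood at 115, 263 and 182 CPM against 0, 10.5 and 45.4 (3.29 ± 0.58, adjusted p = 0.0414). The Glul-high sums held only 73482, 95438 and 88174 gene UMIs, so these low levels rest on few H19 UMIs and the size of the fold is uncertain. In uncalled barcodes H19 was at 269 against 77.2 CPM, a smaller log2 ratio of 1.79. Gsta1, Apom, Trf, A2ml1, Lamp1, Junb, Serpina1e and Serpina1a were higher by 1.96, 1.75, 1.41, 1.49, 1.43, 1.82, 1.36 and 0.85, and the Serpina1 genes are near-identical copies. Agxt gave -0.50 and did not pass. Without hashtag 1 no gene passed (146 at an unadjusted p under 0.05), and without hashtag 3 74 did. All 44 called genes had the same direction in uncalled barcodes, beside 76.4% of all 1329 genes.

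The uncalled barcodes placed more zonation genes, since they held more UMIs, as levels without a test. Of 22 pericentral genes at 20 CPM or more, 17 were at least 2-fold lower than in Glul-high hepatocytes, and none 2-fold higher, beside 2.62% and 4.07% of 4125 genes. Of 15 periportal genes 8 were at least 2-fold higher and none 2-fold lower. Cyp2c37 and Slc1a2 lay lowest after Oat, and Gls2 was the highest. Against Car3-high hepatocytes, 9 of 19 pericentral and 5 of 16 periportal genes were at least 2-fold lower (2.27% of 4095 genes), with Cyp2c37, Cyp2c54 and Cyp2c50, near-identical copies of each other, lowest among them. Against marker-low hepatocytes, 10 of 17 periportal genes were at least 2-fold higher (1.71% of 4209 genes) and 1 was 2-fold lower (5.84% of all), as was 1 of 16 pericentral genes. The median log2 ratio over all genes was 0.25 in that comparison and -0.02 over the pericentral genes. The Sult2a and Akr1c6 hepatocytes lay below both the Glul-high and the Car3-high class in pericentral genes (median log2 ratios of -1.63 and -0.84). In periportal genes they lay above the Glul-high and marker-low classes (1.01 and 1.20) and below the Car3-high class (-0.61). The Glul-high and Car3-high classes were cut by Glul and Car3, which the rule keeps low in the Sult2a and Akr1c6 hepatocytes. The marker-low class was cut by the 3 genes that the rule asks for. The orders in pericentral and in periportal genes therefore go with the rule and are no independent placing in the lobule.

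**Figure D5:**
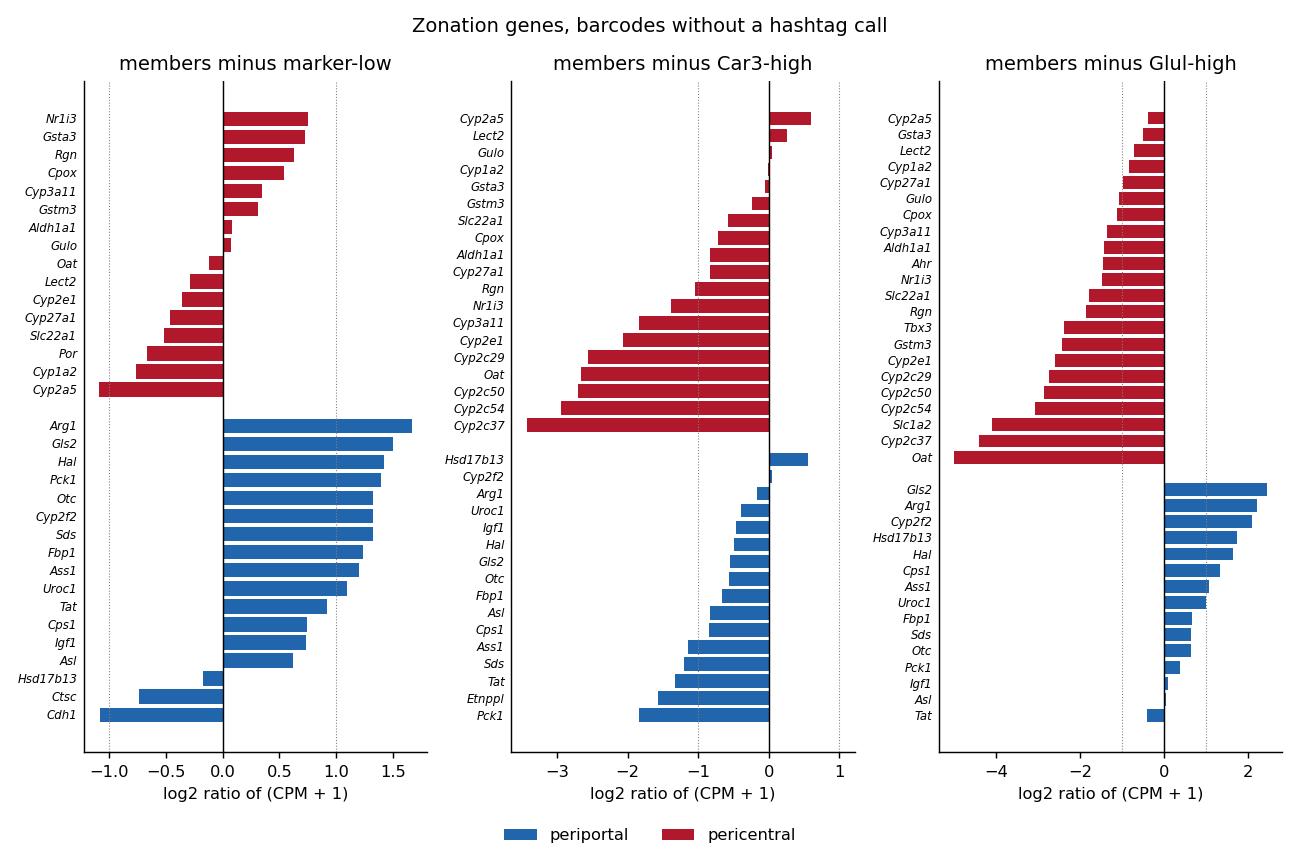
Log2 ratio of CPM + 1 (horizontal axis) between Sult2a and Akr1c6 hepatocytes and each comparison class in barcodes without a hashtag call, for periportal (blue) and pericentral (red) genes at 20 CPM or more in either class; dotted lines mark 2-fold. All 22 pericentral bars lie below 0 against Glul-high hepatocytes, and most periportal bars lie above 0 against marker-low and below 0 against Car3-high hepatocytes.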

How the data were processed

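The pool of 3 mice gave an mRNA library and a library of hashtag tags. The authors deposited raw UMI counts per gene and barcode (10x 3′ v3, Cell Ranger, mm10) and hashtag counts (CITE-seq-Count, no mismatch). The Cell Ranger version is 2.1.1 in the submitters' processing notes and 3.0.2 in the matrix header. The gene library held 142072118 UMIs with a median of 3908 per barcode. Of its 13151 barcodes, 13141 were in both libraries.

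Hashtags were called with HTODemux (Seurat 5.3.0, positive quantile 0.99), which also marked doublets of different mice. Those of 1 mouse were not removed. UMIs were summed per mouse and class (at least 10 barcodes) and tested with the edgeR 4.0.16 quasi-likelihood test (R 4.3.3), TMM, filterByExpr and the mouse as a block, since both classes come from the same animal. Benjamini-Hochberg adjusted p-values under 0.05 were called. The genes of the rule, mitochondrial genes, Nras and mVenus were left out of tests. CPM is the UMI count per 1000000 gene UMIs. Barcodes without a call are given as levels, with ratios on CPM + 1, and intervals cover counting error only. Since the classes were cut from measured values, the tests describe what goes with the rule.

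The 10 largest rises and falls per comparison with 50 CPM in the higher class and the same direction in each mouse are named, besides members of the gene lists. The members and lists were chosen with earlier results of these data known. DESeq2 1.42.0 was an alternative. On simulated sums with 200 changed genes, 4-fold changes were recovered for 92.5% of them against marker-low, 96.5% against marker-low poor in non-hepatocyte RNA, 84% against Car3-high and 93.5% against Glul-high hepatocytes (2161, 1402, 3259 and 1333 genes). For 2-fold changes the shares were 28%, 46%, 14% and 41.5%. The simulation used a fixed dispersion for all genes and, apart from depth, the same means in each mouse. These shares therefore do not give the sensitivity of the tests on the real sums.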

Additional observations from a re-analysis of the deposited data

Results flagged for a closer look

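Of the named and listed genes, 7 passed the test although the hashtag 1 mouse moved opposite to the hashtag 2 and 3 mice, and the difference between the mice was not tested. Against marker-low hepatocytes this was Pecam1, with a log2 ratio of 0.39 for hashtag 1. Against Car3-high hepatocytes it was Fos (-1.05), Cyp2a5 (-0.72), Apob (-0.63), Apom (-0.13), Lamp1 (-0.085) and Ahsg (-0.00013).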

How the results depend on the processing

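The number of calls moved with the processing. Of the values of named genes over all alternatives, 653 values kept direction and side of the threshold, 365 kept the direction and did not pass, and 1 reversed: Cyp2a5 against Car3-high hepatocytes was -0.75 with all 3 genes of the rule required. Against marker-low hepatocytes (450 calls), DESeq2 called 144 genes, the fit with no replicate block 1, a fixed rule for hashtags 0 (397 at an unadjusted p under 0.05), barcodes under 3000 UMIs 139, those from 3000 UMIs 203, all 3 genes of the rule 22, and mitochondrial UMIs under 1%, added after seeing the data, 15; leaving out 1 mouse gave 185 to 378. Against those poor in non-hepatocyte RNA (107 calls) these were 38 with DESeq2, 63 with no filter, 30 with no replicate block, 16 with fixed hashtags, 191 from 3000 UMIs, 287 with a thinned gate, 63 with all 3 genes, 3 under 1% mitochondrial UMIs and 0 to 217 without 1 mouse (at 0, without hashtag 1, 249 at an unadjusted p under 0.05). Against Car3-high hepatocytes (160 calls) they were 50 with DESeq2, 12 with no replicate block, 11 under and 60 from 3000 UMIs, 36 with a thinned gate, 0 with all 3 genes (186 unadjusted), 74 under 1% mitochondrial UMIs (46 of the 160, of which 45 in the same direction and Malat1 in the opposite one) and 35 to 330 without 1 mouse. Against Glul-high hepatocytes (44 calls) they were 92 with no filter, 10 from 3000 UMIs, 19 with a thinned gate and 0 to 74 without 1 mouse. With fewer than 10 barcodes in a class, hashtag 3 was dropped from the fits under 1% mitochondrial UMIs and with all 3 genes, and, for barcodes poor in non-hepatocyte RNA, from those from 3000 UMIs and with fixed hashtags, and hashtag 2 from those under 3000 UMIs. The mouse block pairs sums of the same animal. Shares moved to 24.1% and 24.3% for hashtags 1 and 2 when thinned, and to 27.1% and 21.1% for hashtags 2 and 3 with a hepatocyte gate of 5%. Nras moved to 142 CPM in the Sult2a and Akr1c6 hepatocytes over all barcodes, and in marker-low hepatocytes to 622 from 3000 UMIs, 358 with fixed hashtags, 677 when poor in non-hepatocyte RNA and 612 over all barcodes. The causes were not tested. A hepatocyte gate of 5% could not be fitted in any comparison, since fewer than 2 mice held 10 barcodes in both classes. For the same reason fixed hashtags, mitochondrial UMIs under 1% and barcodes under 3000 UMIs were not fitted against Glul-high hepatocytes, nor the last against those poor in non-hepatocyte RNA.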
